A study of Mus musculus with 6 samples.

Results

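The 42 genes described here are listed regulators of development outside the Hox clusters: 9 Pax, 8 Lhx, 6 Dlx, 8 Nkx, 6 Irx, 2 Msx and 3 Meis genes. They were chosen by name, and all 42 were found among the 22367 protein-coding genes of the annotation. For each gene, the presence and width of accessible regions within 1 kb of an annotated transcription start, and the accessible regions inside the gene, were compared between 3 states of mouse stem cells. The assay was ATAC-seq, where a transposase inserts sequencing adapters into open DNA, and a peak is an interval where the inserted fragments pile up. The states all derived from the J1 embryonic stem cell line of strain 129SV, which is a single male line. ESCs were grown on embryonic fibroblast feeders or gelatin, in serum with LIF and the inhibitors CHIR99021 (GSK3) and PD0325901 (MEK). D-EPSCs, expanded potential stem cells made with the recipe of the Deng group, were grown in N2B27 with serum replacement, LIF, CHIR99021, dimethindene maleate and minocycline hydrochloride. L-EPSCs, made with the recipe of the Liu group, were grown in DMEM/F12 with serum replacement, LIF, CHIR99021, PD0325901, A-419259, XAV939, JNK inhibitor VIII and SB203580. Thus LIF and CHIR99021 were common to the 3 media, while PD0325901 was in those of ESCs and L-EPSCs.

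All of these genes encode transcription factors. Most carry a homeodomain, a DNA-binding fold named after homeotic genes, and Pax proteins carry a paired domain, with or without a homeodomain. Lhx proteins add a pair of LIM domains, and Irx and Meis proteins have a homeodomain with an inserted loop. The families pattern the neural tube, eye, skeleton, kidney, pancreas, heart and face, and they are mostly silent in pluripotent cells. Their promoters are classic examples of CpG-rich bivalent chromatin, in which the activating mark H3K4me3 and the Polycomb mark H3K27me3 lie together.

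The sequences that carry the comparison are 200 bases at or near starts of 5 of the genes, read from NCBIM37 (mm9), 5′ to 3′ on the strand of the gene, with each CpG in capitals. Dlx2 (chr2:71384452-71384651, minus strand) and Lhx4 (chr1:157589211-157589410, minus strand) are shown because both EPSC lists had a peak there and the ESC list had none at the start. The stretches are centred on the bases that the EPSC peaks share, with the middle 259 bp downstream of the nearest start at Dlx2 and upstream of the start at Lhx4, so neither holds that start. Irx3 (chr8:94325447-94325646, minus strand), centred in the same way, had a peak in all 3 lists. Nkx2-1 (chr12:57637795-57637994, minus strand) and Pax4 (chr6:28399253-28399452, minus strand) had none within 1 kb of a start in any list and are centred on the first coding start.
Dlx2: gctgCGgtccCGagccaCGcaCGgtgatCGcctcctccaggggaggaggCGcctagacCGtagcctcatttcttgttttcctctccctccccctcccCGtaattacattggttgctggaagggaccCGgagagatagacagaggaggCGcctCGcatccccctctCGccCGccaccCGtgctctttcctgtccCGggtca
Lhx4: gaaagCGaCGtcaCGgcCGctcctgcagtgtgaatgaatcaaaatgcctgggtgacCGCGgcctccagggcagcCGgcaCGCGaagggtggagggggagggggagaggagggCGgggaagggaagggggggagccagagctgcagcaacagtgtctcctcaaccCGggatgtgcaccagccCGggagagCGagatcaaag
Irx3: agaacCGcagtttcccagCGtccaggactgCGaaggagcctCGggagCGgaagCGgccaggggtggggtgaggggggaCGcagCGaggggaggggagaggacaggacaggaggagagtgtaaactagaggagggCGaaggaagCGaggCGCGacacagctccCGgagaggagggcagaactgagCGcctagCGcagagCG
Nkx2-1: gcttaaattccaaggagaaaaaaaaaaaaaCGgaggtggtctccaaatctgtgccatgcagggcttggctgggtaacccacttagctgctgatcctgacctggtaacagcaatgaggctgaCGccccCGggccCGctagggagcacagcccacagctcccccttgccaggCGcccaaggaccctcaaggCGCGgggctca
Pax4: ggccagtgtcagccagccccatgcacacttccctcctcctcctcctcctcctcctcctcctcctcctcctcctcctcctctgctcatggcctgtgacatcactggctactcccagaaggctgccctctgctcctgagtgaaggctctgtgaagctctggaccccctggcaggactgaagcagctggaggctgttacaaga
Dlx2 held 15 CpGs in these 200 bases, Lhx4 13 and Irx3 16, while the stretches centred on a start held 7 at Nkx2-1 and 0 at Pax4, a comparison that the centring limits. GC content differed less, from 59% at Nkx2-1 and 61.5% at Pax4 to 67% at Irx3. The stretch of Dlx2 contains the homeodomain core taatta, and that of Lhx4 a consensus of Zfp281 on the opposite strand.

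There was 1 list of peaks for each state, which its 2 technical replicates share and which holds positions alone, so no gene has a value per replicate, no test of a difference could be made, and the read depth is unknown. The ESC list held 28965 peaks, that of D-EPSCs 50225 and that of L-EPSCs 46601, so a gene has more chances of a peak in the EPSC lists. For that reason the counts over all 42 genes stand beside the same share over all protein-coding genes where that share was computed, and a start with no peak may still be open. Of 7 genes that mark pluripotent cells, 5 had a start peak in ESCs and all 7 in D-EPSCs and in L-EPSCs. Nanog and Tdgf1 lacked one in ESCs. Of 7 genes that mark embryonic fibroblasts, which can serve as feeder cells for ESCs, a start peak was present at 2 (ESC), 6 (D-EPSC) and 2 (L-EPSC). Bases under peaks at their starts summed to 735, 3619 and 1639, with Lum at 0 in every list, Col1a1, Col1a2, Pdgfrb and Twist1 at 0 in ESCs and Col1a2, Thy1, Pdgfrb and Twist2 at 0 in L-EPSCs. The part of such cells in the D-EPSC values was not tested, and EPSCs were kept without feeders before the assay, per the study's methods.

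To ask whether the starts of these regulators were accessible, a gene was counted when a peak covered at least 1 base within 1 kb of any annotated start. In ESCs this held for 17 of the 42 genes (40.5%), below the 52.3% of all protein-coding genes. In D-EPSCs it held for 39 (92.9%), against 64.2% of all genes, and in L-EPSCs for 33 (78.6%), against 61.5%. The genes thus stood under the background of all genes in ESCs and over it in both EPSC lists. Against genes of like CpG content, given below, the ESC share was lower too at CpG-rich starts, but the EPSC shares were mostly not above it. A start peak in both EPSC lists and not in ESCs was found at 16 genes (38.1%), against 9.09% of all genes, and a start peak in all 3 lists at another 16 (38.1%), against 51.2%. The former were Pax1, Lhx1, Lhx4, Lhx6, Lhx8, Dlx1, Dlx2, Dlx3, Dlx6, Nkx2-2, Nkx2-3, Nkx6-2, Irx1, Irx5, Msx2 and Meis2. A start peak in D-EPSCs alone marked 6 genes (14.3%), against 3.3% of all, which were Pax2, Pax8, Dlx4, Dlx5, Nkx2-5 and Irx4. Lhx5 alone had a start peak in L-EPSCs only (0.908% of all genes) and Nkx2-9 alone one in ESCs and D-EPSCs only (0.537%). No listed gene had one in ESCs only, a pattern of 0.295% of all genes, or in ESCs and L-EPSCs only (0.268%). Pax4 and Nkx2-1 lacked a start peak in any list, as did 34.4% of all genes. When each list was shortened to its widest 28965 peaks, the counts were 17, 32 and 30 genes in ESCs, D-EPSCs and L-EPSCs, against 52.3%, 59.4% and 57% of all genes, and 12 genes had a start peak in both EPSC lists only, against 6% of all genes.

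**Figure D1:**
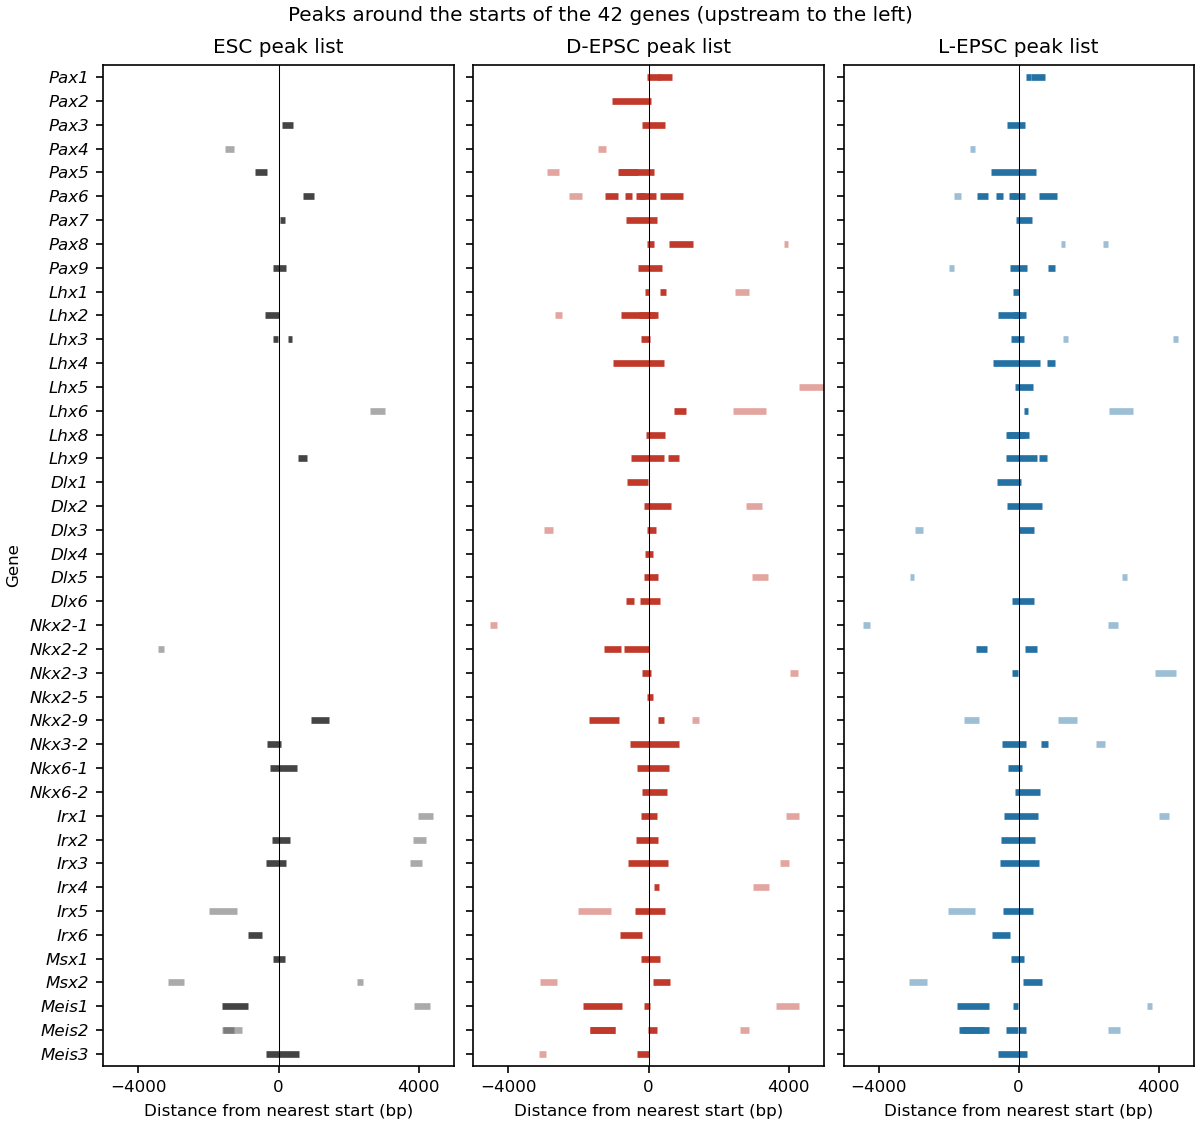
Peaks within 5 kb of a start for each of the 42 genes in the ESC, D-EPSC and L-EPSC lists. Each bar is a peak drawn at its distance from the nearest annotated start in bp, with upstream to the left, dark where it touches the window of 1 kb and pale elsewhere. The ESC panel is empty at the start line for most genes, with start peaks at 17 genes, against 39 in D-EPSCs and 33 in L-EPSCs.

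Of the 9 Pax genes, ESCs had a start peak at 5, D-EPSCs at 8 and L-EPSCs at 6. Pax6 (chromosome 2, 105509053 to 105543317), which directs eye development, had the most start bases of the 42 genes summed over the lists, with 307 bp (ESC), 1778 bp (D-EPSC) and 1434 bp (L-EPSC), spread over its 29 annotated starts. Its ESC signal was a single peak of 307 bp, while each EPSC list had 5 start peaks. At Pax5 (chromosome 4, 44544017 to 44724318), the regulator of B-cell identity, the start bases were 338, 1564 and 1276 bp in ESCs, D-EPSCs and L-EPSCs. D-EPSCs had a second start peak there of 530 bp, at 44724621 to 44725150, that was in neither other list. Pax3, a factor of neural crest and muscle progenitors, had a start peak of 318 bp (ESC), 656 bp (D-EPSC) and 527 bp (L-EPSC). Pax7, which marks muscle stem cells, had 148, 893 and 434 bp, and Pax9, needed for teeth and thymus, had 389, 683 and 490 bp as its widest peak. In each of these 5 genes the widest ESC start peak was narrower than the widest of either EPSC list.

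The other Pax genes had no start peak in ESCs. Pax1, a gene of the vertebral column, had 2 start peaks in D-EPSCs and 2 in L-EPSCs, the widest being 410 and 399 bp, and its nearest ESC peak lay 68334 bp upstream, the farthest of any gene here. Pax2 (chromosome 19, 44830539 to 44912758), a kidney and midbrain regulator, had a peak of 1086 bp in D-EPSCs, at 44830846 to 44831931, and no peak nearer than 5369 bp in ESCs or 9163 bp in L-EPSCs. That was the widest region found in D-EPSCs only at any of these genes. Pax8, a thyroid and kidney factor, had 2 start peaks in D-EPSCs, the wider of 669 bp, and none in ESCs. Its nearest L-EPSC peak, of 118 bp, lay 1210 bp downstream, just beyond the window. Pax4, a factor of pancreatic beta cells, likewise had a peak beyond the window in every list, 1282 bp upstream in ESCs, 1215 bp in the D-EPSC and 1236 bp in the L-EPSC list, between 151 and 233 bp wide.

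Among the Lhx genes, 3 of 8 had a start peak in ESCs, 7 in the D-EPSC list and all 8 in that of L-EPSCs. Lhx4 (chromosome 1, 157548827 to 157589157), which acts with Lhx3 in the pituitary and in motor neurons, had its nearest ESC peak 42960 bp from its start. It had a peak of 1459 bp in D-EPSCs and 2 in L-EPSCs, the wider of 1358 bp, and its start bases were 0, 1436 and 1554 bp in ESCs, D-EPSCs and L-EPSCs. The merged region of 1637 bp at 157588544 to 157590180 was the widest of those in both EPSC lists only, and the Lhx4 sequence above lies inside it. Lhx2, a gene of forebrain and eye, was marked in every list, with 395 (ESC), 1497 (D-EPSC) and 1057 (L-EPSC) start bases. Lhx9, a gonad regulator, had 247, 1271 and 1118 start bases, and a region of 1009 bp at 140744642 to 140745650 on chromosome 1, over an exon, was in both EPSC lists only, the ESC peak lying elsewhere in its start windows. Lhx3 differed least between lists among the genes with a start peak, with 283 (ESC), 279 (D-EPSC) and 385 (L-EPSC) start bases. One of its ESC peaks, of 128 bp in an exon at chr2:26057988-26058115, was the only start region of the 42 genes found in ESCs only, and it had the smallest width that list holds.

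The remaining Lhx genes lacked an ESC start peak. Lhx8, a factor of cholinergic neurons and oocytes, had 536 start bases in D-EPSCs and 1149 in L-EPSCs, and a start region of 620 bp was in L-EPSCs only, at 153992716 to 153993335 on chromosome 3. Lhx5 (chromosome 5, 120881895 to 120891466), a gene of the forebrain, was the single gene with a start peak in L-EPSCs only, 523 bp wide at 120881778 to 120882300. D-EPSCs had instead a peak of 804 bp in an intron of Lhx5, at 120886198 to 120887001, with its near edge 4303 bp downstream of the start. Lhx1, required for head formation, had start peaks of 187 bp in the D-EPSC and 165 bp in the L-EPSC list as the widest. Lhx6, a factor of cortical interneurons, had 341 and 118 bp, and the nearest ESC peak lay 2608 bp downstream. Its 2 EPSC peaks did not overlap, so each was a region of a single list, and 118 bp is the smallest width in the L-EPSC list.

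No Dlx gene had a start peak in ESCs, whereas all 6 had one in D-EPSCs and 4 in L-EPSCs. These genes lie in pairs facing each other and act in forebrain interneurons, jaws and limbs. Dlx1 and Dlx2 lie 9428 bp apart on chromosome 2, and both had start peaks in both EPSC lists only. Dlx1 had peaks of 585 bp in the D-EPSC and 686 bp in the L-EPSC list, with the nearest ESC peak 24121 bp away. Dlx2 (chromosome 2, 71381466 to 71384811) had peaks of 776 and 1002 bp over its start, at 71384135 to 71385136, and the nearest ESC peak was 34441 bp upstream. Dlx5 and Dlx6 lie 9237 bp apart on chromosome 6. Dlx6 had widest start peaks of 556 bp in the D-EPSC and 646 bp in the L-EPSC list, while Dlx5 had one of 410 bp in D-EPSCs and an L-EPSC peak of 161 bp that lay 2947 bp downstream. Dlx3, needed for placenta and epidermis, lies 15160 bp from Dlx4 on chromosome 11 and had peaks of 262 and 435 bp in D-EPSCs and L-EPSCs. Dlx4 had one of 227 bp in D-EPSCs and the nearest L-EPSC peak at 25279 bp. In all 4 Dlx genes with a start peak in both EPSC lists the wider one was in L-EPSCs, while over all genes with both, the D-EPSC peak was the wider in 59.7%. By start bases Dlx6 went the other way, with 780 in D-EPSCs and 646 in L-EPSCs.

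ESCs had a start peak at 3 of the 8 Nkx genes, D-EPSCs at 7 and L-EPSCs at 5. Nkx6-1, a factor of beta cells and motor neurons, had the widest ESC start peak of the family, with 761 bp (ESC), 923 bp (D-EPSC) and 407 bp (L-EPSC), so its L-EPSC peak was narrower than that of ESCs. Nkx3-2, a skeletal gene, had 396, 1397 and 675 bp as its widest peak. Nkx6-2, a relative of Nkx6-1 and a gene of the ventral neural tube and oligodendrocytes, lacked an ESC start peak and had 712 bp in the D-EPSC and 736 bp in the L-EPSC list. Nkx2-2 (chromosome 2, 147003282 to 147019979), which acts in the ventral neural tube and pancreas, had widest start peaks of 714 and 350 bp in D-EPSCs and L-EPSCs, which lay at different places. The D-EPSC peak, at 147019980 to 147020693, lay directly upstream of the gene and was in that list only, and an intronic peak of 938 bp at 147003820 to 147004757 was in L-EPSCs only. An intronic peak of 168 bp at 147015399 to 147015566 was in ESCs only, so Nkx2-2 had regions found in a single list for each of the 3.

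In the rest of the family, peaks were narrow or off the start. Nkx2-5, the cardiac regulator, had a start peak of 172 bp in D-EPSCs, with the nearest ESC peak at 8899 bp and the nearest L-EPSC peak at 5363 bp. Nkx2-3, a factor of gut and spleen, had start peaks of 259 and 187 bp in D-EPSCs and L-EPSCs. Nkx2-1, which specifies thyroid, lung and ventral forebrain, had its nearest peaks 15671 bp away in ESCs, 4341 bp in the D-EPSC and 2553 bp in the L-EPSC list. Nkx2-1, Nkx2-9 and Pax9 are neighbours on chromosome 12, with 74481 bp from Nkx2-1 to Nkx2-9 and 78483 bp from Nkx2-9 to Pax9, and their patterns differed. At Nkx2-9 only 63 bp of an ESC peak of 509 bp and 345 bp of 2 D-EPSC peaks lay within the window, and the nearest L-EPSC peak, of 548 bp, lay 1122 bp downstream.

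Of the 6 Irx genes, 3 had a start peak in ESCs, all 6 in D-EPSCs and 5 in L-EPSCs. They lie in clusters of 3 on chromosomes 8 and 13, and pattern heart, limb and neural tissue. Irx3 (chromosome 8, 94322428 to 94325553) had a peak of 594 bp (ESC), 1155 bp (D-EPSC) and 1135 bp (L-EPSC). Irx5, 556142 bp from Irx3, had peaks of 871 and 849 bp in D-EPSCs and L-EPSCs over the start. Its nearest ESC peak, of 795 bp, lay 1196 bp upstream, close to the window, so the Irx5 contrast rests on the start itself. Irx6 completed the cluster with 383, 642 and 540 bp in ESCs, D-EPSCs and L-EPSCs. On chromosome 13, Irx2 had 495, 636 and 976 bp, and Irx1 had none in ESCs, 454 bp in the D-EPSC and 953 bp in the L-EPSC list, so both had the widest peak in L-EPSCs. Irx4, a gene of the cardiac ventricle, had a start peak of 147 bp in D-EPSCs alone, the smallest widest start peak of the 39 genes with one there. Each cluster thus held genes of more than 1 pattern.

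Msx1 and Msx2, which act in tooth, skull and limb, differed in ESCs. Msx1 had a start peak of 340 bp (ESC), 519 bp (D-EPSC) and 365 bp (L-EPSC). Msx2 had none in ESCs, 490 bp in the D-EPSC and 552 bp in the L-EPSC list, and instead held an intronic ESC peak of 168 bp, at 53566032 to 53566199 on chromosome 13, that was in ESCs only. The Meis genes encode partners of Hox and Pbx proteins. Meis3 was the exception of the whole list, with a start peak of 954 bp (ESC), 348 bp (D-EPSC) and 849 bp (L-EPSC), so that its widest start peak was in ESCs. Meis1 had widest peaks of 750, 1117 and 903 bp that reached only partly into the window. Its start bases were 132, 403 and 294 bp, which include a separate D-EPSC peak of 170 bp and an L-EPSC peak of 144 bp near the start. Meis2 had 363 start bases in D-EPSCs and 713 in L-EPSCs and counts as lacking an ESC start peak, but ESC peaks of 583 and 313 bp overlapped its EPSC peaks just outside the window, the nearer at 1046 bp.

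**Figure D2:**
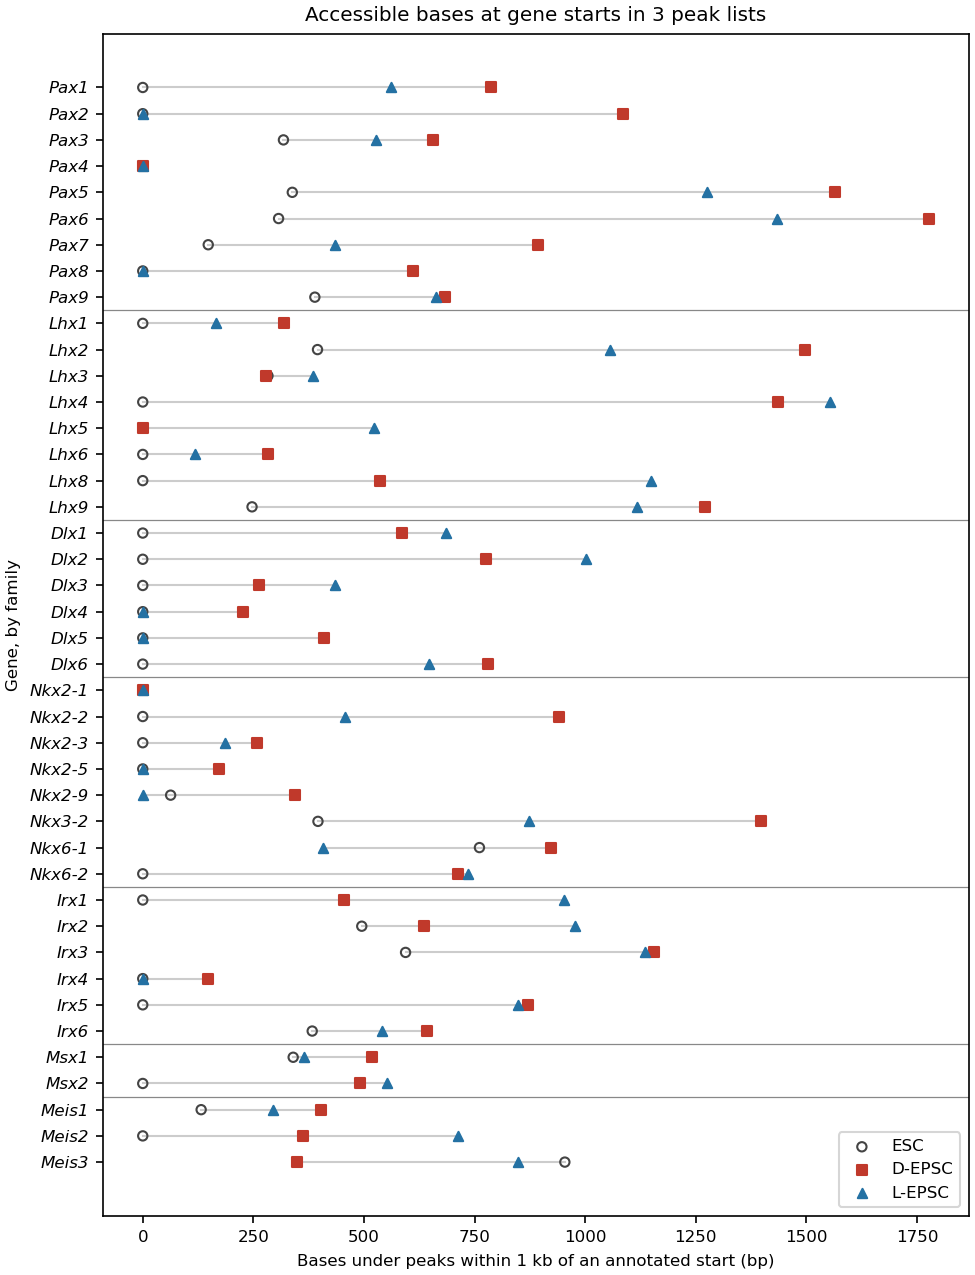
Bases under peaks within 1 kb of an annotated start, in bp, for each of the 42 genes by family, with 1 symbol per list and no error bar because each state has a single list. The ESC symbol lies at 0 for 25 genes and to the left of the D-EPSC symbol for 37, and Meis3, with 954 bp in ESCs, is the clearest exception.

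Counted with no gene left out, bases under peaks at the starts put the 3 lists in the same order. Start windows ranged from 2001 bp, as at Lhx4, to 21050 bp at Pax6, and start bases are not divided by that length. The median over the 42 genes was 0 bp (ESC), 597.5 bp (D-EPSC) and 533.5 bp (L-EPSC), against 173, 500 and 429 bp over all protein-coding genes. D-EPSCs had more start bases than ESCs at 37 genes, fewer at 2 and as many at 3, whereas 55.6% of all genes had more and 9.09% fewer. The 2 were Lhx3 and Meis3. L-EPSCs had more than ESCs at 31 genes and fewer at 3, which were Nkx2-9, Nkx6-1 and Meis3, against 50.4% and 11.8% of all genes. D-EPSCs had more than L-EPSCs at 27 genes and fewer at 13, against 40.1% and 25.2%. A gene without a start peak in any list can only tie, which held for 34.4% of all genes and 2 of the 42. Such ties lower the shares of all genes, so these contrasts do not show whether listed genes with a peak differ from other genes with one. The largest differences between the EPSC lists in favour of D-EPSCs were 1086 bp at Pax2, 610 bp at Pax8 and 525 bp at Nkx3-2. Those in favour of L-EPSCs were at Lhx8 and Lhx5, whose start bases are given above.

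Where a start peak was present, it was narrower at these genes than at genes in general. The median width of the widest start peak was 389 bp at the 17 genes in ESCs, 647 bp at the 39 in D-EPSCs and 620 bp at the 33 in L-EPSCs, against 541, 742 and 691 bp over all genes with one. These medians leave out the genes without a peak. Of the 17 genes with a start peak in ESCs and D-EPSCs, 16 had the wider one in D-EPSCs (82.7% of all genes with both), and of the 16 in ESCs and L-EPSCs, 14 had it in L-EPSCs (77.2%). Peaks also sat less close to the start base. The median distance from a start peak's midpoint to the nearest start was 170 bp (ESC), 206 bp (D-EPSC) and 176 bp (L-EPSC), against 108, 114 and 112 bp over all genes. An annotated start base itself lay inside a peak at 8 of the 42 genes in ESCs, against 43.5% of all genes, at 32 in D-EPSCs (58.4% of all) and at 26 in L-EPSCs (55% of all).

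Because CpG-rich promoters are open in most cell types, the genes were also read by CpG observed/expected, the CpG count divided by that given by chance pairing of the C and G present. Over the start windows its median was 0.592 for the 42 genes, from 0.151 at Pax4 to 0.851 at Nkx6-2, against 0.378 for all protein-coding genes. Of the 20 listed genes above 0.6, ESCs had a start peak at 7 (35%), D-EPSCs at 19 (95%) and L-EPSCs at 18 (90%). Among all 4430 genes above 0.6 the shares were 83.9%, 97.3% and 95.6%. Thus at like CpG content the ESC share of the listed genes was below that of genes in general, while the EPSC shares differed less. A start peak in both EPSC lists only was found at 10 of these 20 genes (50%), against 11.9%. Between 0.4 and 0.6, start peaks were at 9 (47.4%), 18 (94.7%) and 14 (73.7%) of the 19 listed genes in the same order, against 78.2%, 92.7% and 89.7% of all 5966 genes, so there the L-EPSC share was also below that of all genes. In that step 6 genes (31.6%) had a start peak in both EPSC lists only, against 11.8%. When every list was held to its widest 28965 peaks, the EPSC shares of the listed genes lay below those of all genes in both steps. Above 0.6 they were 85% in D-EPSCs and 85% in L-EPSCs, against 94.9% and 92.6%, and between 0.4 and 0.6 they were 68.4% and 63.2%, against 87.7% and 84.9%. A start peak in both EPSC lists only was then found at 9 genes above 0.6 (45%, against 9.41%) and at 3 between 0.4 and 0.6 (15.8%, against 8.1%). Only Pax4, Pax8 and Meis3 lay below 0.4. Irx5, at 0.796, and Irx3, at 0.746, were alike in CpG content and differed in the ESC list, and Nkx2-1, which had no start peak, stood at 0.585. Median CpG observed/expected was 0.584 for the 16 genes with a start peak in all 3 lists and 0.623 for the 16 with one in both EPSC lists only, and their ranges overlapped.

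**Figure D3:**
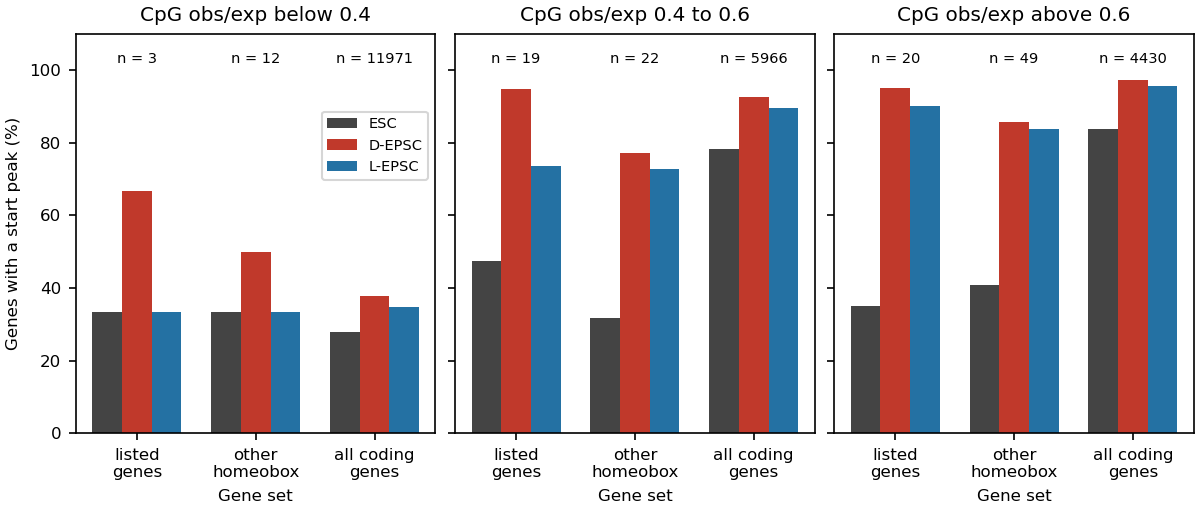
Percent of genes with a start peak in the ESC, D-EPSC and L-EPSC lists, in 3 steps of CpG observed/expected of the start windows, for the 42 listed genes, 83 other homeobox genes and all protein-coding genes, with the number of genes over each group. Above 0.6 the ESC bar is at 35% for the listed genes and 83.9% for all genes, while the D-EPSC bars are at 95% and 97.3%.

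The pattern was not limited to these families. Of 86 other homeobox genes outside the Hox clusters, 83 had a single entry in the annotation, and of these ESCs had a start peak at 31 (37.3%), D-EPSCs at 65 (78.3%) and L-EPSCs at 61 (73.5%). A start peak in both EPSC lists only was found at 30 (36.1%), close to the 38.1% of the listed genes in the full lists. When every list was held to its widest 28965 peaks, the counts were 13 of 49 other homeobox genes (26.5%) and 9 of 20 listed genes (45%) above 0.6 in CpG observed/expected, and 3 of 22 (13.6%) and 3 of 19 (15.8%) between 0.4 and 0.6. In the full lists Otx2, a gene of the anterior brain, had a start peak in both EPSC lists only. Its start bases were 0, 850 and 239 in ESCs, D-EPSCs and L-EPSCs. The listed genes had a start peak in no list at 2 of 42, and the other homeobox genes at 13 of 83 (15.7%).

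Merging overlapping peaks of the 3 lists gave 65 regions at the starts of the 42 genes and 64 in their bodies outside the start windows. At starts, 19 regions were in all 3 lists (29.2%), 24 in both EPSC lists only (36.9%), 13 in D-EPSCs only (20%), 8 in L-EPSCs only (12.3%) and 1 in the ESC list alone. The 16564 start regions of all genes were mostly in all 3 lists (66.1%), with 16.3% in both EPSC lists only, 9.82% in D-EPSCs only and 4.69% in L-EPSCs only. In the bodies 12 regions were in all 3 lists (18.8%) and 13 in both EPSC lists only (20.3%), near the 19.8% and 19.1% of the 22990 body regions of all genes. D-EPSCs only held 23 body regions (35.9%, against 27.2%) and L-EPSCs only 12 (18.8%, against 21.2%). The excess of regions in both EPSC lists only over the background was thus seen at starts, while the body share was near it.

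**Figure D4:**
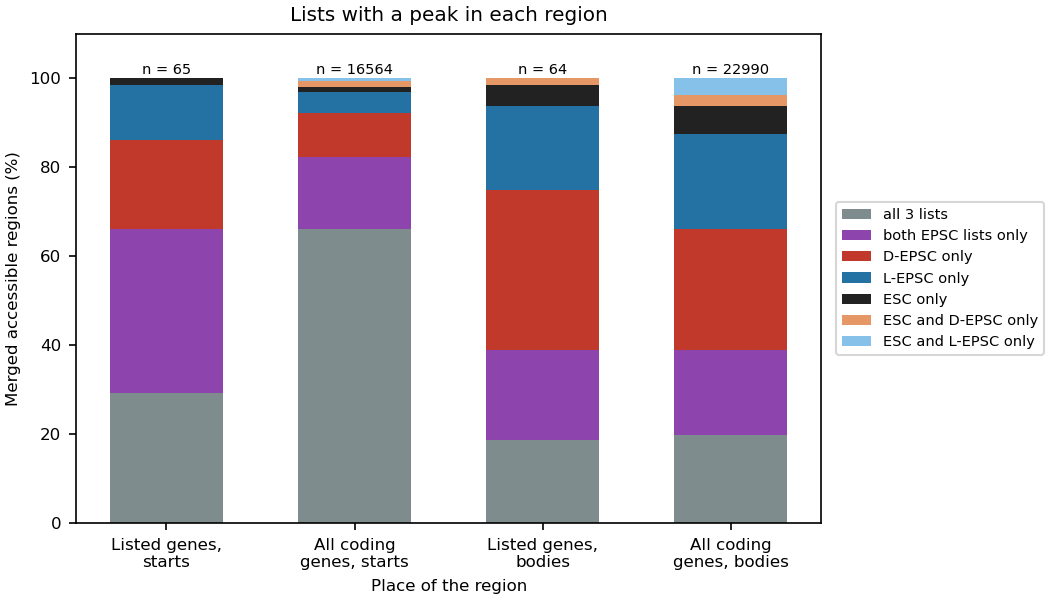
Share of merged regions, in percent, by the lists that have a peak in them, for start windows and gene bodies of the 42 listed genes and of all protein-coding genes, with the number of regions over each bar. Regions in both EPSC lists only make up 36.9% of start regions of the listed genes and 16.3% of those of all genes, while the body bars are alike for that class at 20.3% and 19.1%.

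A body peak was present at 13 of the 42 genes in ESCs, against 21.4% of all genes, at 20 in D-EPSCs (32.7% of all) and at 23 in L-EPSCs (31.4% of all). The bodies held 17 (ESC), 50 (D-EPSC) and 39 (L-EPSC) peaks, or 1.37, 4.03 and 3.14 peaks per 100 kb of gene, against 0.783, 1.62 and 1.52 over all genes. Held to the widest 28965 peaks per list, the counts were 17, 25 and 15, so that the L-EPSC count no longer exceeded that of ESCs. Body peaks of all genes were not counted under that cut, so whether the drop is particular to the listed genes is not known. Pax5, a long gene of 180302 bp, held the most, with 2 (ESC), 10 (D-EPSC) and 6 (L-EPSC) peaks. Its widest body region, in an intron at 44570646 to 44571785, was in every list, with peaks of 467 bp (ESC), 894 bp (D-EPSC) and 1014 bp (L-EPSC). A further Pax5 region, at 44556586 to 44557502, had peaks of 239 bp in the D-EPSC and 917 bp in the L-EPSC list and none in ESCs. Meis2 held 2, 5 and 6 body peaks in the same order, the widest region being intronic at 115845768 to 115847274 with 788, 945 and 1507 bp. Pax2 held 1, 5 and 3, Meis1 2, 4 and 2, and Pax3 2, 5 and 1. The Pax2 region at 44910406 to 44911271, over an exon near the end of the gene, had 866 bp in the D-EPSC and 311 bp in the L-EPSC list. Body regions in the ESC list alone numbered 3, the widest being an intronic peak of 427 bp in Pax7 at 139323666 to 139324092 on chromosome 4. An intronic region of Pax3 at 78116544 to 78117060 on chromosome 1 was the only body region in ESCs and D-EPSCs only, with peaks of 400 and 161 bp.

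Within 50 kb on either side, outside the genes and their start windows, there were 55 (ESC), 126 (D-EPSC) and 92 (L-EPSC) peaks. Per 1000 peaks of the list these were 1.9, 2.51 and 1.97, so the flanks of ESCs and L-EPSCs took a like share of their lists. Held to the widest 28965 peaks per list, they were 55, 70 and 52. For the 25 genes with no ESC start peak the nearest ESC peak lay between 1046 bp, at Meis2, and 68334 bp, at Pax1, with a median of 8729 bp. The 3 genes lacking one in D-EPSCs had a peak within 4341 bp.

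Some of the starts are shared. A noncoding RNA starts on the other strand within the window at Pax1 (AI646519), Lhx1 (1500016L03Rik), Dlx1 (Dlx1as), Dlx4 (A730090H04Rik) and Irx3 (D230002A01Rik), and a peak there cannot be given to 1 of the 2 genes. Over the other 37 genes the counts with a start peak were 16 (ESC), 34 (D-EPSC) and 29 (L-EPSC), with 13 in both EPSC lists only (35.1%). Over all protein-coding genes, from which shared starts were not removed, the shares were 52.3%, 64.2%, 61.5% and 9.09% in the same order.

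Motifs were read as exact letters on both strands over whole peaks. The Zfp281 consensus was found in 6 of the 55 D-EPSC start peaks of the listed genes (10.9%), against 10.3% of D-EPSC start peaks of all genes, in 4 of 49 in L-EPSCs (8.16%, against 9.08%) and in 1 of 18 in ESCs (5.56%, against 6.86%), so the listed genes stood near the background. Lhx4 held 3 copies in its EPSC start peaks, Dlx3 and Pax6 held 1 each in both EPSC lists, and the copy at Irx2 lay in the start peak of all 3 lists. The homeodomain core TAATTA, which many of these proteins bind, was in 2 of the 55 D-EPSC start peaks (3.64%, against 3.04%) and 2 of the 49 in L-EPSCs (4.08%, against 2.84%), at Dlx2 and Meis2 in both, and in 0 of 18 in ESCs, against 2.54%. The Meis core TGACAG was in 16 of 55 in D-EPSCs (29.1%, against 30.2%), 10 of 49 in L-EPSCs (20.4%, against 28.7%) and 4 of 18 in ESCs (22.2%, against 24.3%). The Nkx2 core CACTTNA was in 3 of 55 (5.45%, against 15.4%), 2 of 49 (4.08%, against 14.5%) and 1 of 18 (5.56%, against 12.8%) in the same order. An octamer was in a start peak of Pax6 in both EPSC lists, and a partial REST site (TTCAGCACC) in that of Lhx3 in all 3 lists. The RAR-RXR direct repeat, the NRF1 consensus and the composite of Sox and Oct sites were in none of the start peaks of the listed genes. The TCF/LEF core CTTTGNT was in 11 of 55 D-EPSC start peaks (20%, against 26.2%), 12 of 49 in L-EPSCs (24.5%, against 24.1%) and 5 of 18 in ESCs (27.8%, against 20.8%). In gene bodies it was in 15 of 50 D-EPSC peaks (30%), 13 of 39 in L-EPSCs (33.3%) and 3 of 17 in ESCs (17.6%), against 25.6%, 25.1% and 24.6% of all peaks of those lists. Several of these comparisons depended on the length read. A reading of 300 bp around each midpoint also takes in sequence beyond any narrower peak. In it the Zfp281 shares were 10.9% in D-EPSCs, 8.16% in L-EPSCs and 0 in ESCs, against 4.61%, 4.23% and 3.83%. The homeodomain core was then at 1 D-EPSC start peak (1.82%, against 1.19%) and 3 in L-EPSCs (6.12%, against 1.29%). Whole L-EPSC start peaks held it in 2, so not every match there lay inside its peak. The Meis core moved to 18.2% in D-EPSCs, against 14.3%, while in L-EPSCs it stayed below the background, at 10.2% against 14.3%, and in ESCs it was at 16.7%, against 14.1%. The Nkx2 core was at 5.45%, 4.08% and 0 in D-EPSCs, L-EPSCs and ESCs, against 6.43%, 6.27% and 6.57%. The TCF/LEF core was then in 7.27%, 14.3% and 16.7% of start peaks in the same order, against 11.9%, 11.5% and 11.6%. In bodies it was at 36%, 30.8% and 5.88% for D-EPSCs, L-EPSCs and ESCs, against 20.1%, 19.9% and 19.4% of all peaks. In D-EPSCs that was 18 stretches, against 15 whole peaks, so some of these matches lay outside the peaks. These counts are small, and a match of letters is not a binding site.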

How the data were processed

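ATAC-seq was run on 2 technical replicates of each of the 3 states. The authors trimmed reads with Trim Galore 0.6.3, aligned them to mm9 with Bowtie2 2.3.5, filtered alignments using SAMtools 1.10, and MACS with its defaults gave the peaks. How replicates were combined, and whether duplicates were removed or cut sites shifted, is not given in the sources used here. Without the shift, peak edges would be off by several bases, while duplicate reads and depth set how many weak intervals pass the caller. The deposited values are peak starts and ends, with no score, height or read count, so depth and precision per peak are unknown and no interval was computed.

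Genes and starts came from GENCODE M1 and sequence from NCBIM37, the assembly of mm9. The sequence at 1 start is not reported here. A start peak covered at least 1 bp within 1 kb of any annotated start of the gene, start bases are the bases of those windows under peaks, and body peaks lay within the gene and touched no start window. Flanks reached 50 kb. Motifs, other homeobox genes and markers were lists written by hand. Named with values were genes without a start peak in all 3 lists, and the 5 with the most or fewest start bases, the most body peaks or the largest differences, with the widest 3 regions of each class. The members and all lists were chosen with earlier results of these data known. No tests were run, and counts stand beside those of all protein-coding genes. Alternatives were windows of 500 bp and 2.5 kb, coding starts, peak midpoints, widest peaks, a common minimum width of 128 bp and flanks of 20 and 100 kb. Reading motifs in 300 bp and using the most upstream start were alternatives chosen after seeing the data. Python 3.11.15, numpy 2.4.6 and matplotlib 3.10.9 were used, and scripts were tested on simulated data and against bedtools 2.31.1.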

Additional observations from a re-analysis of the deposited data

How the results depend on the processing

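No paired analysis was possible because the technical replicates of a state share 1 peak list, which also leaves no replicate to drop. Of 131 recomputed values, 106 stayed within 1.5 times of the value reported and 25 moved. The order of the start peak counts, with ESCs lowest and D-EPSCs highest, held under every alternative run for them. With the widest 50% of each list, 10 genes had a start peak in ESCs, 8 in all 3 lists and 8 in no list, against 39.3%, 37% and 39.8% of all genes. A start peak in both EPSC lists only was then at 17 genes, against 14%, a smaller excess over all genes than in the full lists. With lists of equal length 7 had none, against 37.3%. At 2.5 kb from a start 1 gene had none, against 31.2%, and the median ESC start bases were 74. Using only the most upstream start, 12, 35 and 29 genes had a start peak in ESCs, D-EPSCs and L-EPSCs, against 49%, 60.9% and 58.1% of all genes.

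In the order ESC, D-EPSC and L-EPSC, body peaks were 10, 23 and 11 for the widest 50%, and 32, 97 and 82 if start peaks were counted too. In D-EPSCs and L-EPSCs they were 25 and 15 at equal length. Flank peaks were 22, 57 and 43 with the widest 50%, 25, 69 and 48 at 20 kb and 117, 232 and 183 at 100 kb, and 70 and 52 in D-EPSCs and L-EPSCs at equal length. Shorter lists and other distances change such counts by construction. Depth is unknown, so a longer list from deeper sequencing and one from more open chromatin cannot be told apart.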
